A study of Homo sapiens with 6 samples.

Results

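The CDC-like kinases CLK1 to CLK4, the SRSF protein kinases SRPK1 and SRPK2 and the transformer-2 proteins TRA2A and TRA2B were examined as 1 family of splicing regulators. The 8 genes were chosen by symbol in a table of 50868 genes, and each symbol had a single row. All 8 passed the filter on low counts, which asked for 10 or more counts on average. RNA came from HEK-293T, a human embryonic kidney line transformed with adenoviral DNA and carrying the SV40 large T antigen, labelled wild type in both groups. The NC cells were kept for 12 h in medium with 10 µM nitidine chloride (NC), a benzophenanthridine alkaloid, and the control cells for 12 h in medium with DMSO, its solvent. Each group had 3 mRNA libraries. The labels do not say whether these came from separate cultures, so p-values measure the spread between libraries, which may be technical.

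SR proteins bind exons and introns and recruit the spliceosome, and their activity depends on phosphate groups on long arginine-serine repeats. SRPKs phosphorylate these repeats mainly in the cytoplasm, which lets transportin carry SR proteins into the nucleus. CLKs act in the nucleus, add further phosphate and release SR proteins from nuclear speckles. TRA2A and TRA2B are SR-like factors that bind GAA-rich exonic enhancers and are substrates of the same kinases. CLK1 and CLK4 are known for transcripts that keep introns around exon 4 and stay in the nucleus, and TRA2 genes for poison exons that limit their own level.

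The NC libraries held 13273432 to 15620937 counts and the DMSO libraries 12688093 to 16357992. Of 15953 tested genes, 51.7% changed at a false discovery rate of 0.05 (quasi-likelihood test of edgeR, p-values adjusted by the Benjamini-Hochberg method). Higher genes made up 24.7% of all tested genes and lower genes 27%. With scaling by library size alone the share of higher calls among all calls was 57.9%, against 47.7% with TMM scaling, and the median log2 fold change of all genes was 0.12 in place of 0.01. All 6 markers fixed for HEK-293T were detected, with VIM, the filament protein vimentin, at 78.1 to 110.7 FPKM in NC and 62.1 to 88.9 FPKM in DMSO. PAX2, a kidney transcription factor, was low, at 0.627 to 0.816 FPKM in NC and 0.47 to 0.599 FPKM in DMSO. The leukocyte marker CD3E had no count in any library and PTPRC at most 1 count. COL1A1, a fibroblast collagen, was present at 4.05 to 4.45 FPKM in NC and 2.22 to 2.54 FPKM in DMSO, while its partner COL1A2 had at most 5 counts in a library. DCN and CD14 had at most 16 and 14 counts, the endothelial PECAM1 and CDH5 at most 2, and the hepatocyte ALB and APOA2 at most 5 and 1. The HEK-293T marker CDH2, a cadherin, had 2.00 to 2.10 FPKM in NC and 7.62 to 8.31 FPKM in DMSO. The part of these marker differences in the results was not tested. In bulk RNA, fewer cells that express a gene and less RNA per cell cannot be told apart.

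Sequence that related genes share bears on how reads are assigned to them. The coding sequences of each pair, compared between principal transcripts of GENCODE release 29, were identical at 77.1% of aligned bases for CLK1 and CLK4. The identity was 66.8% for CLK2 and CLK3, 66% for SRPK1 and SRPK2 and 65.8% for TRA2A and TRA2B. The longest exact run shared by any transcripts of CLK1 and CLK4 was 49 bases long, and it is shown because a read within it matches both genes and because it is not coding. It lies in intron 3 of both principal transcripts, 131 bases before exon 4 in CLK1 (GRCh38, chr2:200860347-200860395, minus strand) and 130 bases before exon 4 in CLK4 (chr5:178617565-178617613, minus strand). In each gene it is exonic only in 2 of 15 annotated transcripts, all of them retained-intron models. The longest run of SRPK1 and SRPK2, 23 bases, is coding, in exon 7 of 16 in SRPK1 (chr6:35874279-35874301, minus strand) and exon 6 of 15 in SRPK2 (chr7:105160553-105160575, minus strand). The letters are in lower case throughout, since each run is identical in both genes.
CLK1 and CLK4: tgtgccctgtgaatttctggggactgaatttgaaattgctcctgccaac
SRPK1 and SRPK2: ctcaagtggatcatcaaatccaa

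Runs shared by CLK2 with CLK3 were at most 17 bases long, and those shared by TRA2A with TRA2B at most 14 bases. CLK2 also shared 124 bases with the pseudogene CLK2P1, whose own row held 8 to 15 counts in NC and 7 to 13 counts in DMSO. CLK2 itself had 1517, 1758 and 1816 counts in NC and 1035, 1326 and 1478 counts in DMSO.

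Of the 8 genes, CLK2 rose, SRPK1, SRPK2 and TRA2A fell, and CLK1, CLK3, CLK4 and TRA2B did not pass the test. This makes 4 of 8 genes called, next to 51.7% of all tested genes, so the share is that of the background. The groups did not overlap for the same 4 genes, next to 60.7% of all tested genes. The change in SRPK2 was the largest of the 8, with a mean 3.90-fold lower in NC. SRPK1 was 1.49-fold lower, TRA2A 1.47-fold lower and CLK2 1.27-fold higher. The levels that follow are CPM after TMM scaling, which serve to compare libraries for 1 gene.

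**Figure D1:**
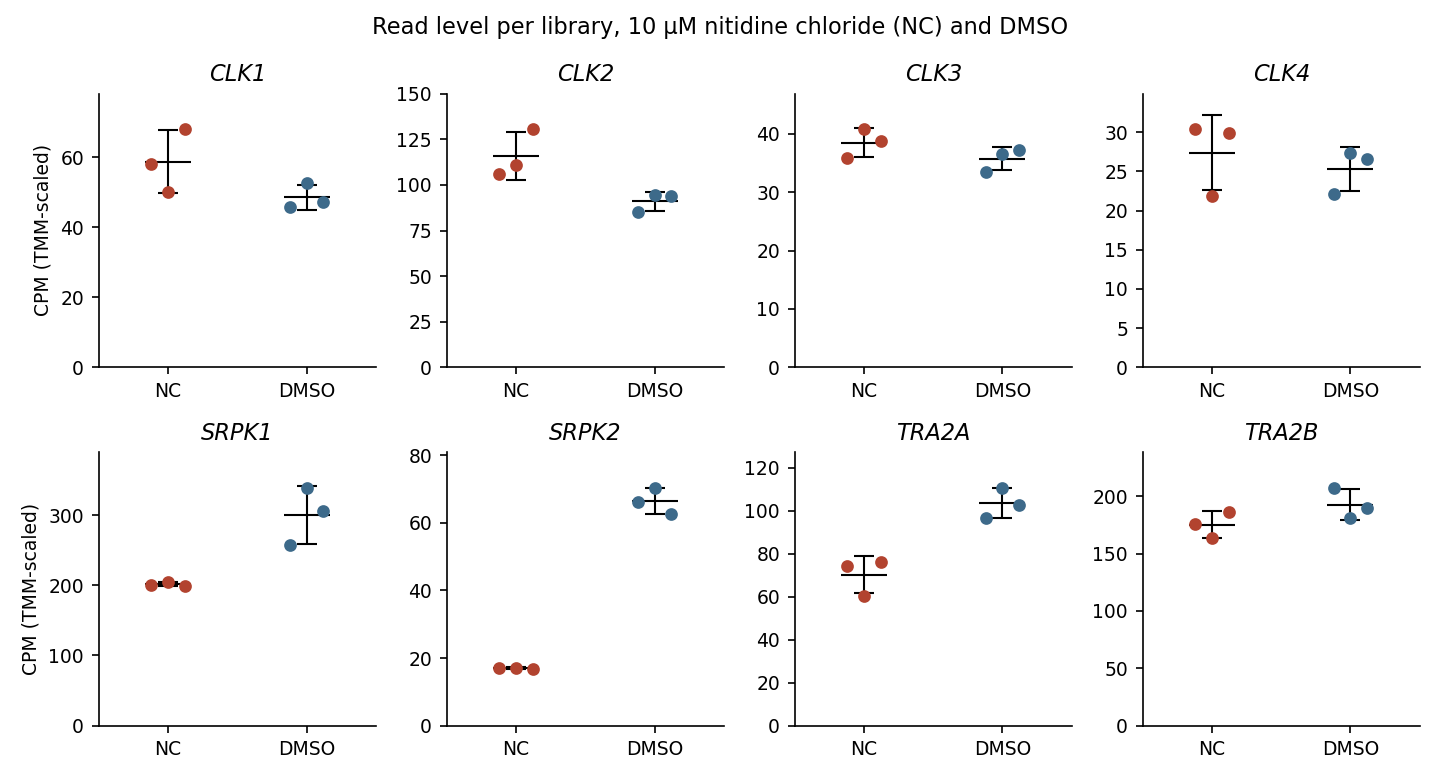
Read level in CPM after TMM scaling for each of the 8 genes, with 1 point per library, the NC group left of the DMSO group, and the mean with SD over 3 libraries as bars. The groups stand apart for CLK2, SRPK1, SRPK2 and TRA2A, and the 3 NC libraries of SRPK2 lie near 17.0 CPM.

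The kinases of the CLK family act on SR proteins inside the nucleus. CLK2 (ENSG00000176444, chromosome 1 from 155262868 to 155278491) had 106.0, 111.0 and 130.6 CPM in NC and 85.1, 94.3 and 93.8 CPM in DMSO. All 3 NC libraries were above all 3 DMSO libraries, with NC replicate 3 the highest. Its log2 fold change was 0.35 ± 0.09 (SE), and edgeR's adjusted p was 0.0146. CLK2 missed the threshold without DMSO replicate 1, where its log2 fold change was 0.30 and the adjusted p 0.0536.

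CLK1 (ENSG00000013441, chromosome 2 from 200853009 to 200864744) had 58.1, 50.2 and 68.0 CPM in NC and 45.7, 52.6 and 47.3 CPM in DMSO. The groups overlapped, since NC replicate 2 lay below DMSO replicate 2. The log2 fold change of CLK1 was 0.27 ± 0.12 with a 95% interval from -0.004 to 0.55, and its adjusted p was 0.0903 in edgeR's test. Without NC replicate 2 CLK1 passed, with 0.38 and an adjusted p of 0.0211, and likewise when only library totals set the scale, with 0.38 and an adjusted p of 0.037.

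CLK4 (ENSG00000113240, chromosome 5 from 178602664 to 178630615), the closest relative of CLK1, had 30.4, 21.9 and 29.9 CPM in NC and 22.1, 27.3 and 26.6 CPM in DMSO. The NC libraries held both the lowest and the highest value of CLK4. As for CLK1, NC replicate 2 was the lowest of its group. The log2 fold change of CLK4 was 0.11 ± 0.15, with a 95% interval from -0.24 to 0.46 and an adjusted p of 0.571 in edgeR's test.

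CLK3 (ENSG00000179335, chromosome 15 from 74598500 to 74645414) had 35.9, 40.8 and 38.8 CPM in NC and 33.5, 36.6 and 37.2 CPM in DMSO. The groups overlapped, and the log2 fold change was 0.11 ± 0.09, with an interval from -0.09 to 0.30 and an adjusted p of 0.332. Exons of CLK3 overlap 701 bases of exons of EDC3, a decapping factor gene on the opposite strand. EDC3 had 815 to 1065 counts in NC and 870 to 1111 counts in DMSO, more than CLK3 with 513 to 646 counts in NC and 408 to 586 counts in DMSO. The strand setting of the counting is not given in the sources used here, so reads of this overlap cannot be told apart and the level of CLK3 is uncertain.

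Over the 4 genes, CLK reads summed to 230.3, 223.8 and 267.4 CPM in NC and 186.4, 210.7 and 204.9 CPM in DMSO. Every NC sum was above every DMSO sum, with a ratio of means of 1.20, and CLK2 carried the largest part of the reads in each library. Taken singly, CLK1, CLK3 and CLK4 had overlapping groups and did not pass the test. The sum also includes CLK3, whose level is uncertain.

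The SRPKs act upstream, on newly made SR proteins. SRPK2 (ENSG00000135250, chromosome 7 from 105110704 to 105399308) had 17.2, 17.1 and 16.8 CPM in NC and 66.2, 70.4 and 62.6 CPM in DMSO. The groups were far apart, and the NC libraries differed among themselves by less than 1 CPM. The log2 fold change was -1.96 ± 0.08, with a 95% interval from -2.15 to -1.78 and an adjusted p of 1.37e-06 in edgeR's test. SRPK2 overlaps 98 exonic bases of KMT2E, a chromatin gene on the opposite strand, and reads of that overlap are uncertain in the same way. SRPK2 had 246, 270 and 234 counts in NC and 805, 990 and 987 in DMSO. KMT2E had 548 to 605 counts in NC and 753 to 1080 counts in DMSO.

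SRPK1 (ENSG00000096063, chromosome 6 from 35832966 to 35921342), the more abundant SRPK, had 200.3, 204.4 and 199.5 CPM in NC and 256.9, 339.1 and 306.1 CPM in DMSO. All NC libraries were below all DMSO libraries. The DMSO libraries spread widely, with replicate 1 the lowest, and the NC libraries lay within 5 CPM of each other. The log2 fold change of SRPK1 was -0.58 ± 0.10, and edgeR's adjusted p was 0.0019.

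Reads of both SRPKs together summed to 217.5, 221.5 and 216.3 CPM in NC and 323.1, 409.5 and 368.7 CPM in DMSO. SRPK2 made up 7.80% ± 0.10 of these reads in NC and 18.2% ± 1.96 in DMSO (SD, n = 3 each). The third member, SRPK3, known from muscle, was too low to be tested, with 10, 14 and 18 counts in NC and 0, 2 and 5 counts in DMSO.

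The TRA2 proteins are splicing factors rather than kinases. TRA2A (ENSG00000164548, chromosome 7 from 23504780 to 23532041) had 74.4, 60.5 and 76.1 CPM in NC and 96.8, 110.7 and 102.7 CPM in DMSO. The groups did not overlap, and NC replicate 2 was the lowest library. The log2 fold change of TRA2A was -0.56 ± 0.10, and edgeR's adjusted p was 0.00257.

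TRA2B (ENSG00000136527, chromosome 3 from 185915906 to 185938136) had 175.8, 163.9 and 186.6 CPM in NC and 207.5, 180.8 and 189.8 CPM in DMSO. The groups overlapped, with NC replicate 3 above DMSO replicate 2. The log2 fold change of TRA2B was -0.14 ± 0.08, with an interval from -0.32 to 0.04 and an adjusted p of 0.179 in edgeR's test. When only library totals set the scale, it was -0.03.

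Both TRA2 genes summed to 250.2, 224.4 and 262.8 CPM in NC and 304.3, 291.5 and 292.5 CPM in DMSO, with no overlap. TRA2B made up 71.5% ± 1.44 of these reads in NC and 65% ± 3.08 in DMSO (SD, n = 3 each).

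Within a library, the ratio of related genes does not depend on library scaling. The log2 ratio of FPKM for SRPK1 over SRPK2 was 3.41, 3.45 and 3.43 in NC and 1.82, 2.13 and 2.16 in DMSO, a difference of 1.39. All NC ratios were higher, so SRPK2 was lower relative to SRPK1. For TRA2A over TRA2B the log2 ratio was 0.15, -0.05 and 0.10 in NC and 0.29, 0.68 and 0.51 in DMSO, a difference of -0.43, and every NC ratio was below every DMSO ratio. For CLK2 over CLK3 it was 3.86, 3.74 and 4.04 in NC and 3.64, 3.66 and 3.63 in DMSO, a difference of 0.24, again with separated groups. The overlap of CLK3 with EDC3 makes this ratio uncertain as well. For CLK1 over CLK4 the ratios overlapped, at 1.53, 1.80 and 1.79 in NC and 1.65, 1.54 and 1.43 in DMSO, a difference of 0.16. The two-sided exact permutation p was 0.1 for the 3 separated pairs, the smallest that 3 against 3 libraries can give, and 0.3 for CLK1 over CLK4. Adjusted over the 4 pairs, these exact p-values were 0.133 and 0.3, so no pair could reach 0.05 in this design. Separated groups are common in these data, as 60.7% of single tested genes had CPM groups that did not overlap. That share was not computed for ratios or for sums of genes.

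**Figure D2:**
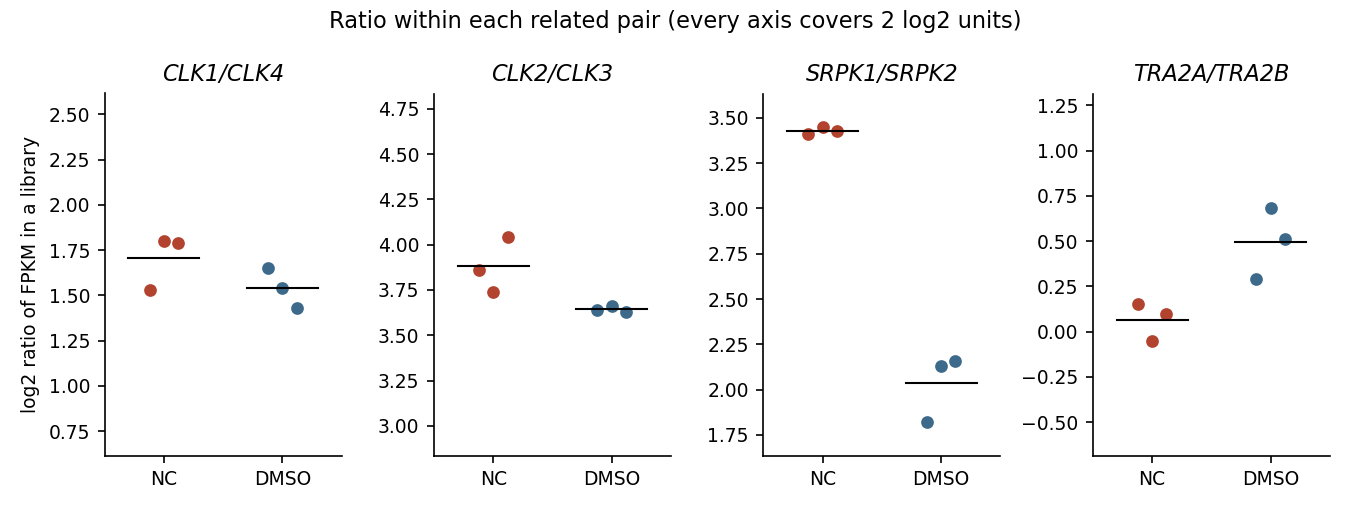
Log2 ratio of FPKM of each related pair in each library, with 1 point per library, the group mean as a line, and NC left of DMSO; every axis covers 2 log2 units, at a different level. The ratio of SRPK1 to SRPK2 stands apart most, with NC at 3.41 to 3.45 and DMSO at 1.82 to 2.16.

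The 8 genes differ in genomic span, the distance from start to end of the gene with introns. Across tested genes of 10 kb or more the median fold change falls with each span class, from a log2 fold change of 0.30 for 2396 genes of 10 to 20 kb to -2.00 for 1047 genes of 200 kb or more. SRPK2, with 288.6 kb and a longest intron of 65.0 kb, is the only member of the longest class, and its log2 fold change differed from the class median by 0.04. In that class 89.3% of genes fell. CLK1 with 11.7 kb and CLK2 with 15.6 kb lay -0.03 and 0.05 from the median of their class. CLK3 with 46.9 kb and CLK4 with 27.9 kb lay -0.03 and -0.02 from 0.13, the median of 3875 genes of 20 to 50 kb.

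The remaining members lay below their classes. TRA2A, with 27.3 kb, was 0.69 log2 units under the median of 0.13, in a class where 12.2% of genes fell and 30.8% rose. TRA2B, with 22.2 kb, belongs to the same class and lay 0.27 units under its median. SRPK1, with 88.4 kb, lay 0.36 units under -0.21, the median of 2535 genes of 50 to 100 kb, of which 39.8% fell. These distances are descriptions and were not tested.

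**Figure D3:**
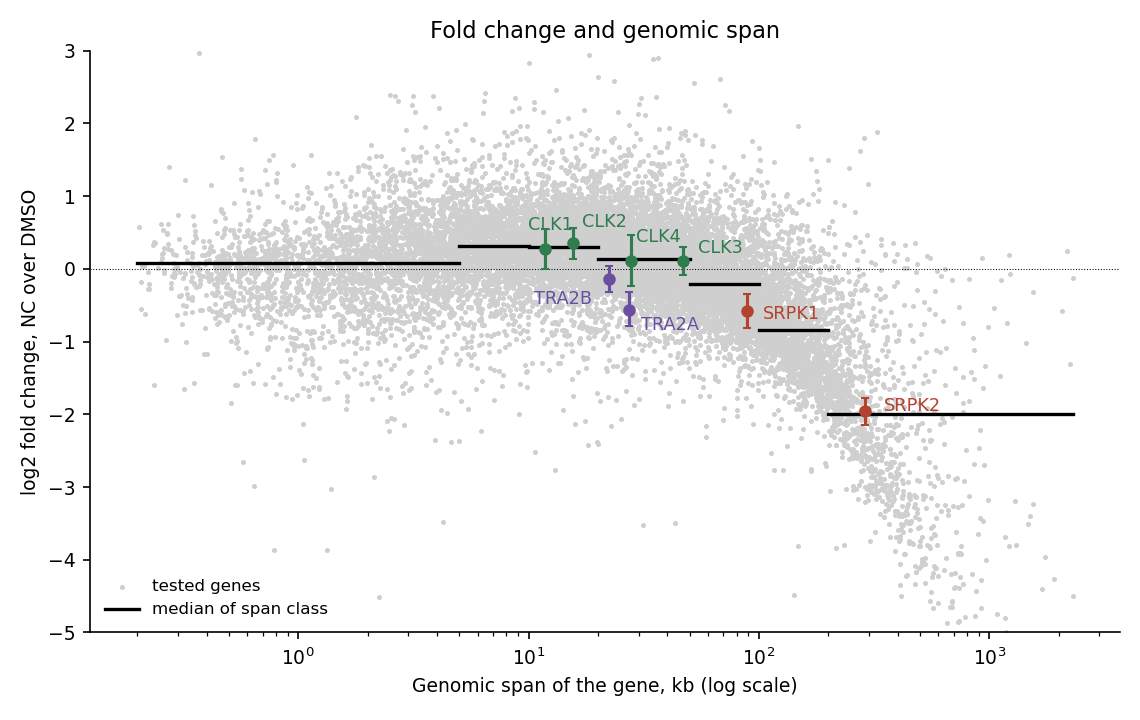
Log2 fold change of NC over DMSO against genomic span in kb on a log axis, with all tested genes in grey, the median of each span class as a black line, and the 8 genes with 95% intervals. The 4 CLK genes and SRPK2 lie within 0.05 of their class medians and TRA2A, SRPK1 and TRA2B below theirs; 31 tested genes lie outside the vertical axis.

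The promoters are shown for the changed members that the RefSeq table holds, CLK2, SRPK1 and SRPK2, as windows of 300 bases that run from 250 bases before to 50 after an annotated start. The table held windows for 7 of the 8 genes, TRA2A being the other. Where it listed several, the one closest to the start of the gene in the deposited table is printed. Capitals mark the GC box GGGCGG on either strand and the cyclic AMP response element core TGACG on either strand. The GC box occurred in 45% of 35116 promoter windows of the table and that core in 24.6%. The windows lie on GRCh38 at chr1:155273455-155273754 for CLK2, chr6:35921049-35921348 for SRPK1 and chr7:105389342-105389641 for SRPK2, all on the minus strand. A gene on this strand starts at its higher coordinate, which is 155278491 for CLK2, 35921342 for SRPK1 and 105399308 for SRPK2. Only the SRPK1 window covers the start of its gene, although the annotated start that sets this window also lies downstream of the gene start. The CLK2 and SRPK2 windows lie wholly inside the gene, at a start downstream of the gene start. Which starts these cells used was not tested.
CLK2: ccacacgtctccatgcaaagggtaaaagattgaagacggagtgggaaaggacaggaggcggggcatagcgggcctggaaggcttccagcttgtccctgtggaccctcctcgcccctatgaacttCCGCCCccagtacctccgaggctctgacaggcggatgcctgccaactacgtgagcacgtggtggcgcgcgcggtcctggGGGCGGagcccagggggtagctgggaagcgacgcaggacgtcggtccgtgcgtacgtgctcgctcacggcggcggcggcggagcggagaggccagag
SRPK1: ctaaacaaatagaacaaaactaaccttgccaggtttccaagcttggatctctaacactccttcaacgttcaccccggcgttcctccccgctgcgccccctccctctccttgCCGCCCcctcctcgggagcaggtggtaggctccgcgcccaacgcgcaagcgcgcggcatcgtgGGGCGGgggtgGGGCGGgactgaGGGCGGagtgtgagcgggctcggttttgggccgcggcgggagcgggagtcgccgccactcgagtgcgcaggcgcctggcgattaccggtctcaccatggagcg
SRPK2: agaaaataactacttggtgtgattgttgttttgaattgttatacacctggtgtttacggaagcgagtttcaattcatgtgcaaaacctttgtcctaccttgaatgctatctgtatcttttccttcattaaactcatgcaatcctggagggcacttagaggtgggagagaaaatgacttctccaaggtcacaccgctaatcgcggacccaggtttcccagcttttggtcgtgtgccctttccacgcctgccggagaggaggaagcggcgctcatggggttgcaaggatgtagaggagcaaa

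The CLK2 window held 2 GC boxes and the SRPK1 window 4, while the printed SRPK2 window held none. Of the 4 SRPK2 windows in the table, 1 held a GC box and 1 the TGACG core. GC content was 67% for CLK2, 67% for SRPK1 and 47% for SRPK2. The windows of CLK1, CLK4 and TRA2B, chosen by the same rule and not shown, held 1, 1 and 2 TGACG cores. None of the 7 windows so chosen held the full palindrome TGACGTCA, present in 1.85% of all windows, or the letters TGATGNAA, present in 3.62%. These matches are descriptions of the letters in these windows.

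Levels of different genes can be compared only per length, and the length behind the deposited FPKM matters for these genes. For 7 of the 8 genes it was identical to the sum of all distinct annotated exons, in which overlapping exons of different transcripts are counted repeatedly. For SRPK1 it was 14224 bases, against a sum of 11174 bases. Over 13537 tested genes with a GENCODE entry, 86.8% had an FPKM length within 1% of that sum and 11.2% within 1% of the merged exons. CLK1, with 15 annotated transcripts of which 8 are retained-intron models, had an FPKM length of 12403 bases, while its merged exons cover 5170 bases and its principal transcript 1888 bases. For CLK3, with 27 transcripts, these lengths were 31506, 20443 and 1846 bases. Deposited FPKM values of the family are thus between 3.10 and 17.1 times lower than levels per length of the principal transcript.

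On the deposited FPKM scale, the levels in NC ran from CLK2 at 18.7 ± 2.26 and SRPK1 at 14.7 ± 0.085 over TRA2A at 9.64 ± 1.34, TRA2B at 9.16 ± 0.75 and CLK1 at 4.91 ± 0.82 to CLK4 at 1.51 ± 0.29, SRPK2 at 1.36 ± 0.027 and CLK3 at 1.26 ± 0.066 (SD, n = 3). In NC the libraries of TRA2A and TRA2B overlapped, and so did those of CLK4 with SRPK2 and with CLK3. In DMSO the order was SRPK1 at 20.4 ± 2.87, CLK2 at 13.6 ± 0.82, TRA2A at 13.1 ± 0.93, TRA2B at 9.34 ± 0.63, SRPK2 at 4.93 ± 0.30, CLK1 at 3.77 ± 0.29, CLK4 at 1.298 ± 0.15 and CLK3 at 1.09 ± 0.063. In DMSO CLK2 overlapped TRA2A, and CLK4 overlapped CLK3. CLK2 thus stood first in NC and SRPK2 next to last, whereas in DMSO SRPK1 stood first and SRPK2 stood above CLK1.

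When the counts of the whole gene were divided by the length of the principal transcript, a scale chosen on seeing the data, the order of levels differed. Reads from exons outside the principal transcript stay in these counts. The overlap of CLK3 with EDC3 leaves the level of CLK3 uncertain here too. In NC, CLK2 had 62.1 ± 7.51 and TRA2B 61.6 ± 5.02 reads per kb at equal library size, above SRPK1 with 45.4 ± 0.26 and TRA2A with 39.5 ± 5.50. In DMSO, SRPK1 had 63.1 ± 8.89 and TRA2B 62.8 ± 4.21 reads per kb at equal library size, above TRA2A with 54.0 ± 3.81 and CLK2 with 45.3 ± 2.73. CLK3, last on the FPKM scale in both groups, was above CLK4 on this scale, with 21.6 ± 1.12 in NC and 18.7 ± 1.07 in DMSO for CLK3 and 11.1 ± 2.12 in NC and 9.50 ± 1.09 in DMSO for CLK4. SRPK2 was the lowest of the 8 genes in NC, with 4.77 ± 0.093, and next to last in DMSO, with 17.3 ± 1.04. On this scale the NC libraries of CLK2 and TRA2B overlapped. The DMSO libraries of SRPK1 overlapped those of TRA2B and TRA2A, and those of SRPK2 overlapped those of CLK3. TRA2A was above TRA2B by FPKM, with a mean log2 ratio of 0.07 in NC and 0.49 in DMSO. Per kb of merged exons TRA2A was also above TRA2B, with 0.42 in NC and 0.84 in DMSO. Per kb of the principal transcript it was below, with -0.65 in NC and -0.22 in DMSO. CLK3 was last per kb of merged exons too, with 1.95 ± 0.10 in NC and 1.68 ± 0.097 in DMSO. On merged exons CLK4 had 3.59 ± 0.69 in NC and 3.08 ± 0.35 in DMSO. None of these scales has TMM scaling, and the length used does not alter the difference between NC and DMSO.

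**Figure D4:**
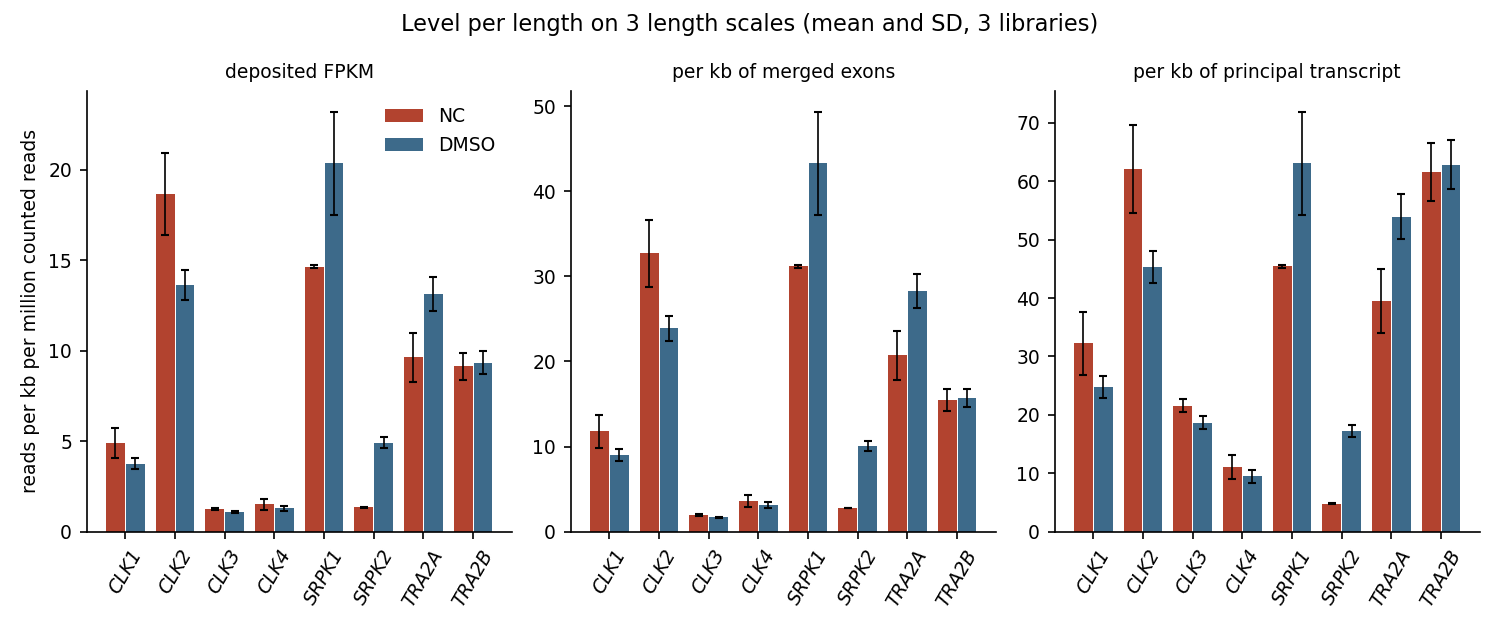
Level of the 8 genes in reads per kb at equal library size, with the deposited FPKM on the left, merged exons in the middle and the principal transcript on the right; bars are means and error bars SD over 3 libraries, NC left of DMSO. All panels use the counts of the whole gene. CLK3 is last in the left and middle panels and above CLK4 in the right one, and SRPK2 is among the 3 lowest genes in NC in all panels.

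The substrates and partners of these kinases moved in both directions. Of the 12 SR proteins SRSF1 to SRSF12, 3 rose, 4 fell and 5 did not pass, with a median log2 fold change of -0.01, next to 0.01 over all tested genes (7 of 12 called, next to 51.7%). SRSF6 had 443.6 ± 12.4 CPM in NC and 286.9 ± 2.07 CPM in DMSO, a log2 fold change of 0.63 ± 0.05 (edgeR, adjusted p = 4.6e-05). SRSF4 rose with 0.51 ± 0.16, but its groups overlapped. Without DMSO replicate 2, DMSO replicate 3, NC replicate 1 or NC replicate 2, the adjusted p of SRSF4 in edgeR's test was between 0.0939 and 0.101. SRSF1, the founding SR protein and main SRPK1 substrate, had 468.8 ± 14.9 CPM in NC and 602.7 ± 21.7 CPM in DMSO, with -0.36 ± 0.06. SRSF7 fell with -0.33 ± 0.08. The genes SRSF6, SRSF4, SRSF1 and SRSF7 span 6.32, 34.2, 3.99 and 7.90 kb.

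Of 27 SR-related proteins, 10 rose, 5 fell and 12 did not pass, with a median log2 fold change of 0.00. The 15 called genes were 55.6% of the list, near the 51.7% called over all tested genes. Without DMSO replicate 2, 3 fell. LUC7L, a partner of the U1 particle, had 111.4 ± 16.8 CPM in NC and 40.5 ± 3.39 CPM in DMSO, a log2 fold change of 1.46 ± 0.12 (edgeR, adjusted p = 4.11e-05). RNPS1, which joins the exon junction complex, rose with 0.83 ± 0.15. LUC7L spans 40.5 kb and RNPS1 15.3 kb. RSRC1, a gene of 439.9 kb, had 3.37 ± 0.97 CPM in NC and 37.8 ± 1.74 CPM in DMSO, a log2 fold change of -3.49 ± 0.18 (edgeR, adjusted p = 4.06e-06). SCAF8, which binds the tail of RNA polymerase II, fell with -1.25 ± 0.08 and spans 100.9 kb.

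Among 13 tested kinases that belong to the same CMGC group or to the splicing machinery, 5 rose, 5 fell and 3 did not pass, with a median log2 fold change of -0.18. The 10 called kinases were 76.9% of those tested, next to 51.7% over all tested genes. DYRK3, which dissolves condensates of splicing factors in mitosis, had 69.6 ± 5.16 CPM in NC and 32.9 ± 2.07 CPM in DMSO, a log2 fold change of 1.08 ± 0.09 (edgeR, adjusted p = 3.58e-05). DYRK1B rose with 0.83 ± 0.14. DYRK3 spans 48.9 kb and DYRK1B 8.85 kb. HIPK2, a nuclear kinase with a gene of 216.2 kb, had 67.9 ± 1.23 CPM in NC and 241.3 ± 0.75 CPM in DMSO, a log2 fold change of -1.83 ± 0.05 (edgeR, adjusted p = 6.01e-07). CDK13, a kinase of the polymerase II tail (147.1 kb), fell with -1.18 ± 0.09.

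Phosphatases that remove the phosphate from SR proteins, 7 genes with their nuclear subunits, had 2 higher and 2 lower members and a median log2 fold change of 0.09. The share called was 57.1%, near the 51.7% of all tested genes. PPP1R8, the nuclear inhibitor NIPP1 of protein phosphatase 1, rose with 0.54 ± 0.06, and PPP1R10, its nuclear targeting subunit PNUTS, fell with -0.59 ± 0.10. PPP1CA, a catalytic subunit, rose with 0.18 ± 0.07, but its adjusted p in edgeR's test was between 0.0803 and 0.139 without DMSO replicate 1, 2 or 3 or NC replicate 1 or 2. It was 0.0997 with a replicate block, 0.0733 with no filter and 0.0716 with DESeq2. PPP1CB, another catalytic subunit, had 112.1, 204.2 and 223.6 CPM in NC and 294.9, 304.0 and 289.3 CPM in DMSO, with a log2 fold change of -0.72 ± 0.22. Its adjusted p in edgeR's test was between 0.0587 and 0.0691 when any DMSO library was left out, and without NC replicate 1 the log2 fold change was -0.47. Counts of higher phosphatases were 1 under each setting where PPP1CA missed and 4 when only library totals set the scale, and 1 phosphatase fell when any DMSO library was left out. The genes PPP1R8, PPP1CA, PPP1CB and PPP1R10 span 20.9, 23.0, 51.3 and 18.2 kb.

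Of 9 import and chaperone partners, 1 rose, 5 fell and 3 did not pass, with a median log2 fold change of -0.19. The 6 called genes were 66.7% of the list, next to 51.7% over all tested genes, of which 27% fell. The count of lower genes was 3 without DMSO replicate 3, and without NC replicate 2 there were 2 higher genes. When only library totals set the scale, 3 rose and 3 fell. HSPA8, a constitutive HSP70 chaperone, had 614.0 ± 35.6 CPM in NC and 1081 ± 47.0 CPM in DMSO, a log2 fold change of -0.82 ± 0.07 (edgeR, adjusted p = 3.49e-05). TNPO3, the transportin that imports phosphorylated SR proteins (101.0 kb), fell with -0.53 ± 0.06, and AHSA1, an activator of HSP90, rose with 0.32 ± 0.08. HSPA8 spans 5.74 kb and AHSA1 11.6 kb.

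Of 10 genes for nonsense-mediated decay, the pathway that removes transcripts with poison exons, 4 rose, 4 fell and 2 did not pass, with a median log2 fold change of 0.04. The share called was 80%, next to 51.7% of all tested genes. These shares and counts describe the lists and were not tested. With any DMSO library left out, or with a replicate block, 2 rose. UPF3B had 93.2 ± 15.7 CPM in NC and 49.4 ± 1.63 CPM in DMSO, a log2 fold change of 0.91 ± 0.12, and SMG9, a regulator of the kinase SMG1, rose with 0.69 ± 0.08. SMG6, the endonuclease (243.9 kb), had 15.2 ± 1.81 CPM in NC and 49.8 ± 3.27 CPM in DMSO, a log2 fold change of -1.71 ± 0.11 (edgeR, adjusted p = 1.14e-05). UPF2 (123.1 kb) fell with -1.02 ± 0.10. UPF3B spans 19.0 kb and SMG9 27.0 kb.

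**Figure D5:**
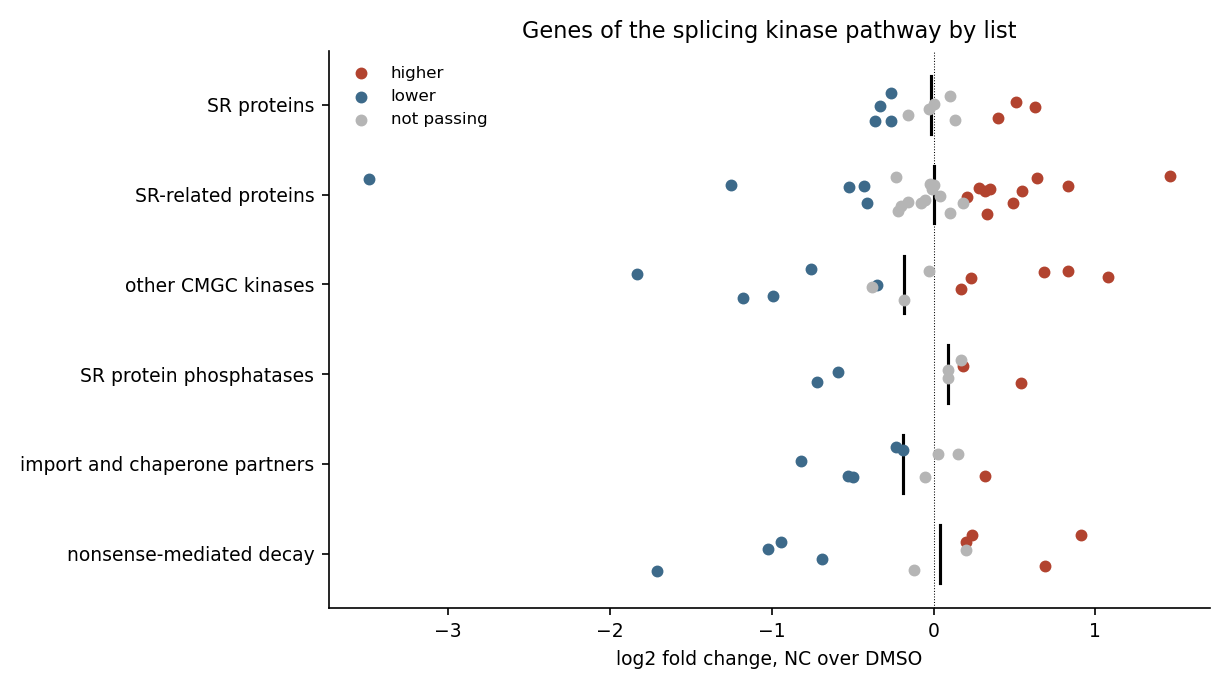
Log2 fold change of NC over DMSO for the tested genes of 6 lists around the splicing kinases, with 1 point per gene coloured by whether it passed an adjusted p of 0.05, and the list median as a black line. Every list holds higher and lower genes, and RSRC1 at -3.49 is the lowest point.

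The profile of CLK2, the member with the highest fold change, was compared with 6196 genes of at least 5 FPKM by the Euclidean distance between centred log2 CPM values over the 6 libraries. The nearest were LZTS2 (11.2 kb) at a distance of 0.052, CC2D1A (24.7 kb) at 0.088 and RNPS1P1 (0.918 kb), a pseudogene entry, at 0.093. Their log2 fold changes were 0.37, 0.31 and 0.35. CC2D1A missed the threshold of edgeR's test without DMSO replicate 1 (adjusted p = 0.083), without DMSO replicate 3 (adjusted p = 0.0566) and without NC replicate 3 (adjusted p = 0.0696), and RNPS1P1 without DMSO replicate 1 (adjusted p = 0.0591). For SRPK2, the lowest member, the nearest were MBOAT2 (151.1 kb), MED27 (219.8 kb) and USP9X (150.9 kb), at distances of 0.089, 0.118 and 0.128 and with log2 fold changes of -1.92, -2.00 and -1.88. Fold changes close to those of CLK2 and SRPK2 follow from this choice of genes, since the distance uses the same 6 libraries.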

How the data were processed

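Libraries of mRNA from HEK-293T cells, 3 with NC and 3 with DMSO, were grouped and numbered by the sample labels. Per the file headers and the values, the authors deposited unnormalised counts for each gene, whole numbers with library totals from 12688093 to 16357992. The authors also deposited FPKM, per the file headers. Per the submitters' processing notes, HISAT2 2.0.4 and StringTie 1.3.0 are the tools listed; which step each served, the counting tool, its strand setting and the build are not stated in the sources used. Gene positions were identical to GENCODE release 29 (GRCh38) for 47488 of 50111 shared identifiers.

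Tests covered the 15953 genes averaging 10 or more counts, with edgeR 4.0.16 in R 4.3.3 (TMM scaling, quasi-likelihood test, Benjamini-Hochberg adjustment over all tested genes, threshold 0.05). CPM refers to counts in tested genes. The SE is the log2 fold change divided by the square root of the F statistic, and intervals are at 95%. Implied FPKM lengths used values of at least 50 counts. The 4 pair ratios had exact permutation tests. The 8 genes, the 6 lists and the tests were chosen with earlier results of these data known. Named genes were the members, the 2 highest and 2 lowest changed genes per list and the 3 nearest profiles of the members with the highest and the lowest fold change. Profiles had 0.5 CPM added before logs. Alternatives were each library left out, a replicate block, no filter, a mean of at least 50 counts, DESeq2 1.42.0, library size alone and limma-voom (limma 3.58.1). Simulated counts with known changes were used to check the scripts. Replicates of a group differed by more than sampling noise. Promoters came from RefSeq (GRCh38.p14), with motif shares counted without chromosome 8. Lengths by merged exons and principal transcript were chosen on seeing the data. Plots were drawn with matplotlib 3.10.9.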

Additional observations from a re-analysis of the deposited data

How the results depend on the processing

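The number of higher genes among the 8 ran from 0 to 2 when single libraries were left out (0 without DMSO replicate 1, where CLK2 missed, and 2 without NC replicate 2, where CLK1 passed), and library size alone gave 2. The number of lower genes was 3 under all 12 alternatives. SRPK1, SRPK2 and TRA2A passed under each, with log2 fold changes from -0.68 to -0.47, from -2.01 to -1.86 and from -0.62 to -0.45. CLK3, CLK4 and TRA2B passed under none. With a replicate block 1 of the 8 genes was higher and 3 were lower. The labels do not say whether equal replicate numbers pair the libraries. Correlations of same-numbered deviations from the group mean were 0.001, -0.055 and 0.04. NC replicates 1, 2 and 3 correlated best with DMSO replicates 2, 1 and 2. A check on 3 libraries per group cannot decide whether the numbers pair them. The block moved the counts to 3492 higher and 4063 lower genes. With library size alone 5140 genes were higher and 3730 lower. Of 144 list counts recomputed, 123 were within 1.5 times the reported one. The ratios of CPM must give the same differences as the FPKM ratios, because gene length and library total cancel, so their equality is no check. When single libraries were left out, the differences of the FPKM ratios ran from 1.29 to 1.45 for SRPK1 over SRPK2. For TRA2A over TRA2B they ran from -0.53 to -0.33. Counts of 234 to 270 for SRPK2 in NC were the fewest behind a changed member.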
